A study of Mus musculus with 6 samples.

Results

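Cyclic AMP and cyclic GMP are made by cyclases, carry hormone signals inside the heart muscle cell and are broken down by phosphodiesterases. Cyclic AMP frees the catalytic subunits of protein kinase A (PKA) from its regulatory subunits, and anchoring proteins (AKAPs) hold that kinase, often together with a phosphodiesterase, beside its substrates. Cyclic GMP acts through protein kinase G (PKG) and also stimulates or inhibits some phosphodiesterases, and in heart these branches set the force, rate and relaxation of the beat.

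The genes described here are the protein-coding genes whose symbols start with Pde, Adcy or Akap and a digit, or with Prkac, Prkar or Prkg. They number 59 of the 55401 genes in the deposited table. Of these, 21 encode phosphodiesterases, 5 are named Pde but encode no hydrolase of cyclic nucleotides, 10 encode adenylyl cyclases, 2 PKA catalytic subunits, 4 PKA regulatory subunits, 2 PKG forms and 15 anchoring proteins. A pseudogene, Prkaca-ps1, matched by name and was left out because it is not protein coding. Poly(A) RNA was sequenced from 6 hearts of C57BL/6 mice, 3 mice given angiotensin II (Ang II) and 3 control mice, all between 6 and 8 weeks of age. Ang II is a vasoconstrictor peptide that activates Gq-coupled receptors, and its dose, route and duration are not given in the sources used here, nor is what the control mice received. The comparison asks how Ang II alone altered the heart's transcripts, and no other treatment named in the series title was analysed here.

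Estimated counts summed to between 51202916 and 63564869 per Ang II library and between 53583726 and 57844780 per control library. Ang II replicate 1 stood apart from the other 5 libraries: it lay at -119.9 on a first principal component holding 41.9% of the variance, where the others lay between 19.8 and 31.9. The labelled tissue was heart, although the extraction text speaks of an adipose type. Cardiomyocyte markers summed to 36060 to 46010 CPM (counts scaled to library size) in Ang II and 35270 to 40310 CPM in control hearts, and adipocyte markers to 0 to 1.14 and 2.56 to 3.29 CPM. Summed endothelial markers were lower in every Ang II heart, at 354 to 399 CPM against 514 to 568 CPM in control hearts, as was each of the 5 genes. Summed erythroid markers were lower, at 275.0 to 405 against 503 to 1257 CPM, with 3 of 4 genes below control in every Ang II heart. The neural and glial sum was lower, at 4.67 to 5.11 against 6.25 to 6.91 CPM. Only 2 of its 5 genes lay below control in every Ang II heart, and Th had at most 3 counts in any library. Atrial markers were higher, at 273 to 415 against 106 to 149 CPM, in each of 4 genes. The skeletal muscle list summed to 506 to 719 CPM in Ang II and 136.5 to 164 CPM in control hearts, with 1 of its 6 genes, Acta1, above control in every Ang II heart, and Myh2 at no more than 3 counts in any library. Ang II replicate 1 also differed from the other Ang II hearts in some lists. Its fibroblast markers summed to 144 CPM, against 427 and 406 CPM in replicates 2 and 3 and 378 to 399 CPM in control hearts. Its macrophage markers summed to 149 CPM, against 76.2 and 81.8 CPM and 86.5 to 104 CPM. In whole tissue, fewer cells of a type and less RNA per cell cannot be told apart, and the part of these marker differences in the results below was not tested.

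No gene of the set passed the threshold for a change with Ang II. By the quasi-likelihood test of edgeR with Benjamini-Hochberg adjusted p-values, 0 of the 50 genes with enough counts to test passed at 0.05, against 6 of all 16759 genes tested (0.0358%). At an unadjusted p under 0.05 there were 6 of 50 (12%), against 7.51% of all genes. These were 2 higher in Ang II hearts, Pde7a and Pde4d (3.57% of all genes were higher), and 4 lower, Akap5, Pde10a, Akap12 and Adcy6 (3.94% of all genes were lower). DESeq2 on the same counts called 1 gene of the set, Akap5, as lower, against 1.65% of all genes called. Without Ang II replicate 1, edgeR called 0 of the set against 0.73% of all genes, and at an unadjusted p under 0.05 stood 12 of 50 (24%, against 15.4% of all genes), 5 higher and 7 lower, against 7.75% and 7.6% of all genes. All 6 genes named above were among them.

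In CPM, the 3 Ang II hearts all lay above the 3 control hearts in 3 genes (Pde7a, Pde4d and Adcy5) and all below them in 6 (Akap5, Pde10a, Akap12, Adcy6, Akap9 and Akap8l). Over all genes tested the corresponding shares were 7.97% and 9.21%, near the 6% and 12% of the set. In the deposited FPKM, which is scaled otherwise, only Akap5 and Pde4d of these genes kept the groups apart. Adcy6, for example, had 17.4 FPKM in Ang II replicate 2 and 13.7 FPKM in control replicate 1. The log2 change was below 0 in 38 of the 50 genes (76%), with a median of -0.15, against 49.1% of all genes, whose median was 0.01. Ang II replicate 1 was the lowest of the 6 libraries in 46% of the set and in 32.6% of all genes tested, and control replicate 2 was the highest in 42% of the set and in 15.7% of all genes. The median of the set was -0.06 without control replicate 2. Without Ang II replicate 1 29 of the 50 log2 changes lay below 0 (58%, against 51.4% of all genes), with a median of -0.11.

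**Figure D1:**
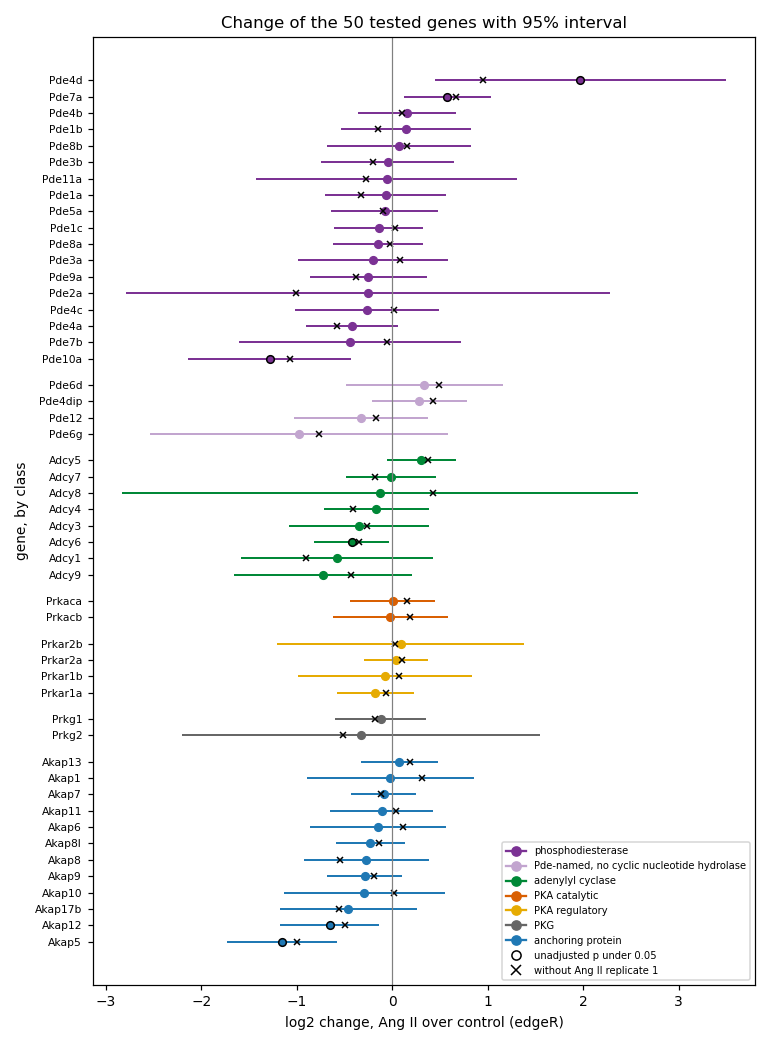
The log2 change of each of the 50 tested genes, Ang II over control, with its 95% interval from edgeR, grouped by class and ordered by change; a ring marks an unadjusted p under 0.05 and a cross gives the change without Ang II replicate 1. The intervals of Pde4d and Pde7a lie above 0 and those of Akap5, Pde10a, Akap12 and Adcy6 below it, while the remaining 44 include 0.

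The 9 genes that were not tested reached at most 12 counts in any library. They comprise the catalytic subunits Pde6a, Pde6b and Pde6c and the inhibitory subunit Pde6h of the photoreceptor phosphodiesterase, the cyclase Adcy2, the bicarbonate-sensitive soluble cyclase Adcy10, and the anchors Akap3, Akap4 and Akap14, of which Akap3 and Akap4 are known from sperm. Pde6b, Pde6c, Akap4 and Akap14 had 0 counts in all 6 libraries.

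Levels between genes were compared on FPKM, which divides by transcript length. Over the 6 hearts 24 of the 59 genes averaged at least 1 FPKM and 5 averaged at least 10 FPKM. Those 5 were the PKA catalytic subunit Prkaca at 39.5 FPKM, Pde4dip at 30.7 FPKM, the PKA regulatory subunit Prkar1a at 30.5 FPKM, the cyclase Adcy6 at 17.6 FPKM and the mitochondrial anchor Akap1 at 10.3 FPKM. The leading gene took most of the FPKM among cyclases and PKA subunits, and less among anchors. Prkaca supplied 94.6% ± 0.868 of catalytic-subunit FPKM in Ang II and 94.4% ± 0.882 in control hearts (SD, n = 3 each), and Prkar1a supplied 87.9% ± 0.783 and 89.4% ± 0.371 of regulatory-subunit FPKM. Adcy6 held 57.8% ± 4.86 of cyclase FPKM in Ang II and 64.7% ± 1.94 in control hearts, and Akap1 held 30.6% ± 9.26 and 28.1% ± 1.3 of anchor FPKM.

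**Figure D2:**
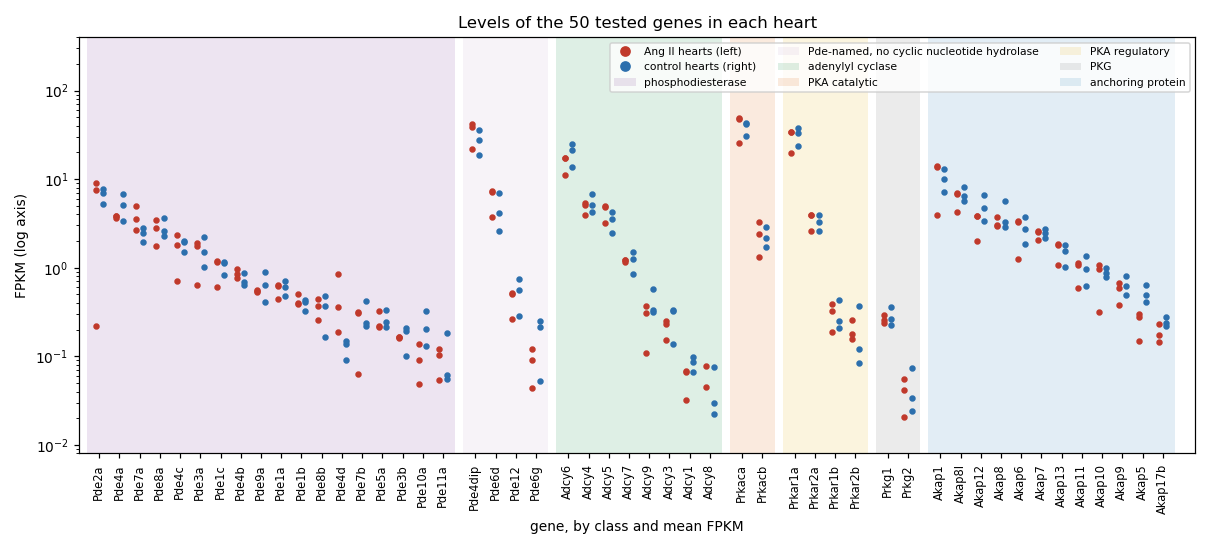
Deposited FPKM (log axis) of the 50 tested genes in each heart, Ang II hearts as red points to the left of control hearts in blue, grouped by class and ordered by mean level. Prkaca, Pde4dip, Prkar1a and Adcy6 average 17.6 to 39.5 FPKM, many genes lie below 1 FPKM, and Adcy8, listed at 0 in Ang II replicate 1, falls below the axis there.

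Among the adenylyl cyclases, which make cyclic AMP, Adcy5 and Adcy6, the closely related calcium-inhibited forms of the heart muscle cell, gave log2 changes of opposite sign. Adcy6 (ENSMUSG00000022994; GRCm38 chr15:98589973-98610076, minus strand) had 97.6, 116 and 113 CPM in Ang II hearts and 126, 159 and 154 CPM in control hearts. The groups did not overlap. Adcy6 thus gave a log2 change of -0.43 (SE 0.16, 95% interval -0.81 to -0.04), a fitted ratio of 0.744 (unadjusted p = 0.0343, adjusted p = 0.624 by edgeR).

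Adcy5 (ENSMUSG00000022840; chr16:35154877-35305738, plus strand) had 29.5, 34.2 and 34.4 CPM in Ang II hearts and 23.9, 28.9 and 26.6 CPM in control hearts. Every Ang II heart lay above every control heart, though Ang II replicate 1 and control replicate 2 were close. The log2 change of Adcy5 was 0.31 (SE 0.15, interval -0.04 to 0.65; adjusted p = 0.693 by edgeR), and 0.38 without Ang II replicate 1 (unadjusted p = 0.0147 by edgeR).

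Set against each other within a library, the pair separated the groups more cleanly than either did alone. The ratio of Adcy5 to Adcy6 FPKM was 0.285, 0.278 and 0.287 in Ang II hearts and 0.179, 0.171 and 0.163 in control hearts, which is 0.283 ± 0.00503 and 0.171 ± 0.00849 (SD, n = 3 each). Ang II replicate 1, which stood apart in the transcriptome as a whole, fell within the other Ang II hearts on this measure. The ratio was chosen after the values of its genes were seen and is given as a description. As a share of all cyclase FPKM, Adcy6 was 6.86 percentage points lower in Ang II hearts (a difference of -4.17 points without Ang II replicate 1), and its 2-sided exact permutation p of 0.1 is the smallest that 3 against 3 allows (Benjamini-Hochberg adjusted p = 0.3 over the 6 classes compared). Adcy5 made up 15.0%, 17.2% and 17.0% of cyclase FPKM in Ang II hearts and 11.3%, 11.01% and 10.8% in control hearts.

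Adcy4, known from vessels and responsive to G-protein βγ subunits, averaged 5.11 FPKM over the 6 hearts, between Adcy6 at 17.6 FPKM and Adcy5 at 3.86 FPKM. Adcy7 averaged 1.20 FPKM and the other cyclases less. Adcy4 had 32.2, 18.3 and 23.1 CPM in Ang II and 26.7, 30.5 and 25.5 CPM in control hearts, so that Ang II replicate 1 was the highest of all 6 and the other Ang II hearts the lowest. The log2 change of Adcy4 was -0.17 (SE 0.23) with that library and -0.41 without it (unadjusted p = 0.0311 by edgeR). Adcy9 gave a log2 change of -0.73 (SE 0.39, adjusted p = 0.715 by edgeR), and -0.43 without Ang II replicate 1, and its span overlaps the gene model Gm6142 on the same strand. In all, 7 of the 8 cyclases tested had log2 changes below 0, with a median of -0.26.

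The start of Adcy5 is printed here because it was the 1 cyclase of 8 tested with a log2 change above 0 with all hearts. Its interval includes 0. Its sequence is the 250 bases before the RefSeq start, GRCm38.p6 chr16:35154614-35154863, plus strand, in lower case throughout because the cyclic AMP response element core TGACG is not in this window on either strand.
Adcy5: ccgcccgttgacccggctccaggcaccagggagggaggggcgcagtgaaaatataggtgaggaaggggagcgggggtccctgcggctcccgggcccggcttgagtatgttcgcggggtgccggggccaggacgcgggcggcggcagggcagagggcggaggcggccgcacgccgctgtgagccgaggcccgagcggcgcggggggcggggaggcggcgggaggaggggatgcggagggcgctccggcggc

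**Figure D3:**
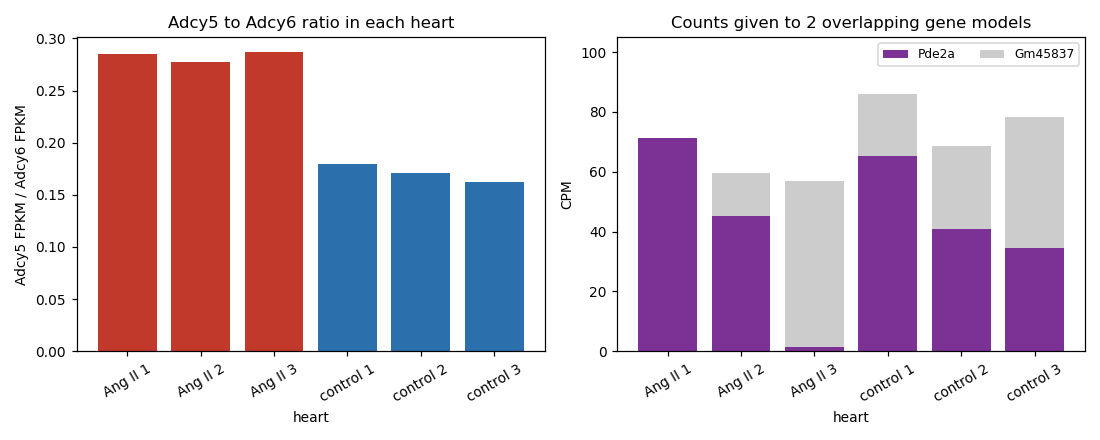
Left, the ratio of Adcy5 to Adcy6 FPKM in each heart, at 0.278 to 0.287 in the Ang II hearts and 0.163 to 0.179 in the control hearts. Right, CPM assigned to Pde2a and to the overlapping gene model Gm45837, stacked for each heart; Pde2a alone drops to 1.36 CPM in Ang II replicate 3, where the sum is 56.9 CPM.

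The PKA subunits had log2 changes near 0. Prkaca had 82.0, 119 and 114 CPM in Ang II hearts and 103, 98.6 and 113 CPM in control hearts. The ranges overlapped in full, and Ang II replicate 1 was the lowest. Its log2 change was 0.00 (SE 0.18, 95% interval -0.43 to 0.44), and that of Prkacb, the other catalytic subunit, was -0.02 (interval -0.61 to 0.57). With these intervals, changes of up to about the stated bounds cannot be told from none.

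Prkar1a, the type I alpha subunit that holds the kinase inactive without cyclic AMP, had 109.6, 144 and 142 CPM in Ang II hearts and 138, 157 and 153 CPM in control hearts, with overlapping groups. This gave a log2 change of -0.18 (interval -0.57 to 0.21; adjusted p = 0.818 by edgeR), and of -0.06 without Ang II replicate 1. Prkar2a, the type II alpha subunit through which most anchors bind the kinase, averaged 23.3 ± 1.85 CPM in Ang II and 22.7 ± 0.935 CPM in control hearts (SD, n = 3 each; log2 change 0.04, interval -0.28 to 0.36). The share of Prkar1a among regulatory subunits was 1.52 percentage points lower in Ang II hearts, again at the smallest exact permutation p of 0.1 (adjusted p = 0.3). Prkar1b and Prkar2b, forms known mainly from nervous and fat tissue, stood at or below 1.73 CPM in every heart.

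Promoter windows from RefSeq were searched for the cyclic AMP response element TGACGTCA on both strands. Of the 59 genes 48 had a window of 250 bases before to 50 bases after a start, and Prkar1a was the 1 gene with a match. Its element is shown in capitals with its flanks, GRCm38.p6 chr11:109650880-109650927, plus strand, with 41 bases between the element and a RefSeq start. That start lies inside the gene's span, which begins at 109649405 in the deposited table.
Prkar1a: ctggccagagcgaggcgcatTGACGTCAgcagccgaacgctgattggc
The element was present in 2.17% of the set's 92 windows and in 1.79% of all 32851 windows, and the core TGACG in 19.6% and 20.8%. The core is part of the element, so windows with the element count in both. A match is a description of letters and not of binding.

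The PKG genes were low. Prkg1, the form of smooth muscle and other cells that relaxes vessels in response to nitric oxide and natriuretic peptides, had 3.40, 3.21 and 2.77 CPM in Ang II hearts and 3.37, 3.74 and 3.09 CPM in control hearts (log2 change -0.12, 95% interval -0.59 to 0.35). Prkg2 stayed at or below 0.569 CPM in every heart.

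Phosphodiesterases gave log2 changes from -1.28 (Pde10a) to 1.97 (Pde4d). Of 18 tested, 5 had log2 changes above 0 and 13 below, with a median of -0.11. Pde7a (ENSMUSG00000069094; chr3:19223108-19311322, minus strand), specific for cyclic AMP, had 26.6, 38.4 and 26.4 CPM in Ang II hearts and 20.7, 20.5 and 19.98 CPM in control hearts. Control hearts were nearly equal and all Ang II hearts lay above them, with replicate 2 the highest. The fitted ratio was 1.49, with a log2 change of 0.58 (SE 0.19, 95% interval 0.14 to 1.02; unadjusted p = 0.0179, adjusted p = 0.548 by edgeR).

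Pde4d (ENSMUSG00000021699; chr13:108449948-109953461, plus strand), a cyclic AMP phosphodiesterase known to be held by several anchors in heart, had 13.3, 2.23 and 4.24 CPM in Ang II hearts and 1.53, 1.61 and 1.89 CPM in control hearts. All Ang II hearts lay above the control hearts, and replicate 1 was far above the other Ang II hearts. The fitted ratio was 3.92 with all hearts (log2 change 1.97, SE 0.64, adjusted p = 0.548 by edgeR) and the log2 change was 0.95 without replicate 1 (unadjusted p = 0.0246 by edgeR). The span of Pde4d holds Rps3a3, a ribosomal protein gene model on the same strand, so its counts are uncertain.

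Pde10a (ENSMUSG00000023868; chr17:8525372-8986645, plus strand), which hydrolyses both nucleotides and is best known from the striatum, had 0.828, 1.17 and 1.70 CPM in Ang II hearts and 2.28, 3.95 and 2.82 CPM in control hearts. The groups did not overlap, at low abundance. For Pde10a the log2 change was -1.28 (SE 0.36, 95% interval -2.13 to -0.44; unadjusted p = 0.0091, adjusted p = 0.487 by edgeR).

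Within the Pde4 genes, which all hydrolyse cyclic AMP, Pde4a was the most abundant. It had 37.7, 27.5 and 28.4 CPM in Ang II hearts and 34.9, 49.2 and 41.4 CPM in control hearts. Ang II replicate 1 lay among the controls while the other Ang II hearts lay below all of them. The log2 change was -0.42 (SE 0.20, adjusted p = 0.69 by edgeR), and -0.58 without replicate 1 (unadjusted p = 0.0113 by edgeR). Pde4a held 56.5% ± 5.38 of Pde4 FPKM in Ang II and 64.6% ± 6.07 in control hearts (SD, n = 3 each; exact permutation p = 0.2, adjusted p = 0.4), and Pde4d 14.0%, 2.86% and 4.84% against 1.62%, 1.46% and 1.81%. Pde4b gave a log2 change of 0.15 (interval -0.35 to 0.66).

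Pde2a, an enzyme that cyclic GMP stimulates to break down cyclic AMP, had the highest phosphodiesterase level, 6.13 FPKM on average, and the least certain one. It had 71.2, 45.3 and 1.36 CPM in Ang II hearts and 65.2, 40.8 and 34.5 CPM in control hearts. The low value of Ang II replicate 3 stood beside a high one of Gm45837, a gene model on the same strand that shares 95.6% of its exonic bases with Pde2a. Gm45837 had 0, 14.5 and 55.6 CPM in Ang II hearts and 20.8, 27.8 and 44.0 CPM in control hearts. Summed, the pair had 71.2, 59.8 and 56.9 CPM in Ang II and 86.0, 68.5 and 78.5 CPM in control hearts, with replicate 1 above the lowest control heart and the other Ang II hearts below it. The log2 change was -0.31 (SE 0.16, adjusted p = 0.705 by edgeR) for the sum and -0.25 (SE 1.06, adjusted p = 0.958) for Pde2a alone, so the counts of Pde2a alone carry no usable comparison. The sum was added after the values were seen.

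The remaining cardiac phosphodiesterases gave intervals that include 0. Pde3a, the enzyme that cyclic GMP inhibits and the target of milrinone, had 10.6, 23.8 and 21.5 CPM in Ang II and 17.6, 26.6 and 20.3 CPM in control hearts, the lowest in Ang II replicate 1 (log2 change -0.21, interval -0.98 to 0.57). Pde5a, the cyclic GMP phosphodiesterase that sildenafil blocks, gave a log2 change of -0.08 (interval -0.63 to 0.47) and Pde9a, which prefers cyclic GMP, by -0.25 (interval -0.86 to 0.35). Pde1a and Pde1c, which calcium and calmodulin stimulate, gave -0.07 (interval -0.69 to 0.55) and -0.14 (interval -0.60 to 0.31). Pde8a, a cyclic AMP enzyme of high affinity, gave -0.15 (interval -0.61 to 0.31), and Pde3b -0.05 (interval -0.73 to 0.64).

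Of the genes named Pde that hydrolyse no cyclic nucleotide, Pde4dip (myomegalin), a large scaffold of centrosome, Golgi and sarcomere that binds Pde4d, had 474, 651 and 679 CPM in Ang II hearts and 430.2, 568 and 486.5 CPM in control hearts. Ang II replicates 2 and 3 lay above every control heart and replicate 1 among them. Its log2 change was 0.28 (SE 0.20, adjusted p = 0.769 by edgeR), and 0.43 without replicate 1 (unadjusted p = 0.0169 by edgeR). Pde6d, a chaperone that carries prenylated proteins, gave 0.34 (SE 0.34), and 0.04 without control replicate 3.

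The anchoring proteins held the gene with the smallest p of the set. Akap5 (ENSMUSG00000021057; chr12:76324891-76334153, plus strand), which ties PKA, protein kinase C and calcineurin to the plasma membrane near β-adrenergic receptors and calcium channels, had 1.31, 2.01 and 1.84 CPM in Ang II hearts and 3.83, 4.10 and 3.60 CPM in control hearts. The groups lay far apart relative to the spread within each, at low abundance. They averaged 1.72 ± 0.363 and 3.84 ± 0.250 CPM (SD, n = 3 each), with a fitted ratio of 0.449. The log2 change was -1.16 (SE 0.24, 95% interval -1.72 to -0.59). The unadjusted p was 0.00195 by edgeR, and the adjusted p was 0.337 by edgeR and 0.00256 by DESeq2. Leaving out each library in turn kept the log2 change between -1.28 and -0.997, with an unadjusted edgeR p of at most 0.00933. The adjusted edgeR p in these fits ran from 0.0933 to 0.96, so none of them called Akap5. Akap5 made up 0.738%, 0.775% and 0.717% of anchor FPKM in Ang II hearts and 1.54%, 1.39% and 1.44% in control hearts.

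Akap5 was the gene of the set that DESeq2 called and edgeR did not. Printed for Akap5 is the run of 250 bases before its RefSeq start, GRCm38.p6 chr12:76324641-76324890, plus strand. It is all in lower case since TGACG is not in these bases on either strand.
Akap5: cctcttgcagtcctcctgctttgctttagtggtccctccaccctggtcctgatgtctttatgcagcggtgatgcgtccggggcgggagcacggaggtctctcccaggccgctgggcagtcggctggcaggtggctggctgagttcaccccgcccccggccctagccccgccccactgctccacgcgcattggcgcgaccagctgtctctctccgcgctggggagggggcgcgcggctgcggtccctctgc

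Akap12 (gravin; ENSMUSG00000038587; chr10:4266380-4359470, plus strand), a scaffold of PKA and protein kinase C that binds β-adrenergic receptors, had 17.2, 25.7 and 25.1 CPM in Ang II hearts and 31.1, 42.7 and 33.4 CPM in control hearts. The groups did not overlap. They averaged 22.7 ± 4.71 and 35.7 ± 6.12 CPM (SD, n = 3 each), with a log2 change of -0.66 (SE 0.21, 95% interval -1.17 to -0.14; unadjusted p = 0.0193, adjusted p = 0.557 by edgeR). As a share of anchor FPKM Akap12 stood at 9.96%, 10.1% and 10.0% in Ang II hearts and 12.8%, 14.7% and 13.6% in control hearts, with Ang II replicate 1 level with the other Ang II hearts. The anchor total differed in make-up in replicate 1. Akap1 held 19.9% of it there, against 36.2% and 35.7% in the other Ang II hearts, and Akap8 held 18.6% against 7.74% and 7.80%.

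In several anchors Ang II replicate 1 lay far from the other Ang II hearts. Akap1, which places PKA on the mitochondrial outer membrane, had 22.5, 60.1 and 58.6 CPM in Ang II hearts and 42.6, 53.6 and 47.0 CPM in control hearts. Replicate 1 was the lowest of the 6 and the other Ang II hearts the highest. Its log2 change was -0.02 (interval -0.89 to 0.85) with all hearts and 0.32 without replicate 1 (unadjusted p = 0.0389 by edgeR). Akap6 (mAKAP), the anchor of the nuclear envelope in heart muscle cells, had 23.9, 48.8 and 47.0 CPM in Ang II and 37.4, 52.3 and 43.4 CPM in control hearts, and its log2 change was -0.15 with replicate 1 and 0.11 without it. Akap8, a nuclear anchor, went the other way, with 41.4 CPM in replicate 1 and 25.4 and 25.3 CPM in the other Ang II hearts, against 34.3, 47.1 and 29.7 CPM in control hearts (log2 change -0.27, and -0.54 without replicate 1).

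The remaining anchors gave intervals that include 0. Akap7, which sits at calcium channels and phospholamban, averaged 11.2 ± 0.470 CPM in Ang II and 11.9 ± 0.740 CPM in control hearts (SD, n = 3 each; log2 change -0.09, interval -0.42 to 0.24). Akap13, an anchor that also activates RhoA, gave a log2 change of 0.07 (interval -0.32 to 0.47). Akap9, which couples PKA to a repolarising potassium channel, was lower in every Ang II heart at 10.9, 12.96 and 14.3 CPM, against 14.9, 17.1 and 14.7 CPM in control hearts (log2 change -0.29, interval -0.68 to 0.10). Akap8l, a nuclear relative of Akap8, was also lower in each, at 28.02, 33.8 and 34.6 CPM against 39.2, 39.0 and 35.0 CPM (log2 change -0.23, interval -0.58 to 0.12). Akap10, which binds both types of regulatory subunit, gave -0.29 (interval -1.12 to 0.54). In all, 11 of 12 anchors tested had a log2 change below 0, with a median of -0.25, and without Ang II replicate 1 there were 7 of 12, with a median of -0.13.

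**Figure D4:**
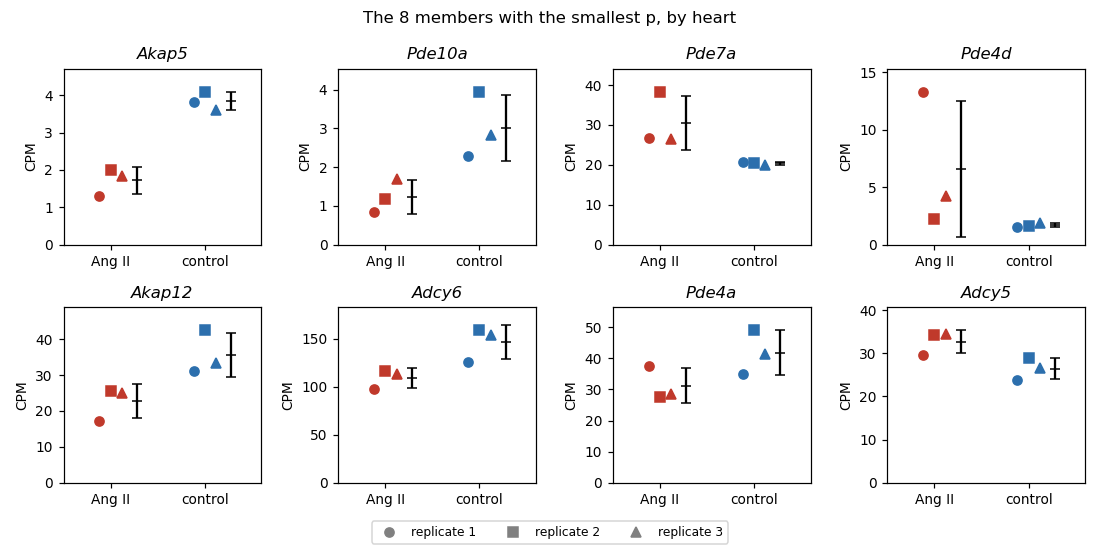
CPM in each heart of the 8 genes with the smallest p in edgeR's test, Ang II hearts in red on the left of each panel and control hearts in blue on the right; the bars give mean ± SD of 3 hearts. Akap5, Pde10a, Akap12 and Adcy6 are lower in every Ang II heart, Pde7a, Pde4d and Adcy5 higher, and Pde4a overlaps through Ang II replicate 1.

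Of 86 other genes listed for the pathway, 80 were tested, and edgeR called 0 of them. At an unadjusted p under 0.05 stood 2 higher and 10 lower, against 3.57% and 3.94% of all genes, with a median log2 change of -0.14. DESeq2 called 1 higher and 3 lower, against 1.65% of all genes in either direction. The 3 called lower were Dusp1, Nr4a1 and Fosb. Fosb had 1.40, 5.3 and 4.19 CPM in Ang II hearts and 3.57, 44.9 and 25.8 CPM in control hearts, with overlapping groups (adjusted p = 0.556 by edgeR and 0.0372 by DESeq2). Genes that the cyclic AMP-responsive factor CREB is known to drive held 7 of the 10 lower ones among 11 tested (median log2 change -1.18), and many of them are also driven by other signals. This list was chosen with earlier results of these data known, so its count and median are descriptions only. Without Ang II replicate 1 the list had 5 lower and 1 higher, against 7.6% and 7.75% of all genes, and edgeR called 1 of them, Dusp1, as lower. The MAP kinase phosphatase Dusp1 had 38.2, 37.0 and 35.7 CPM in Ang II hearts and 70.9, 59.5 and 66.8 CPM in control hearts (log2 change -0.83, SE 0.14; adjusted p = 0.243 by edgeR and 9.58e-06 by DESeq2). The orphan receptor Nr4a1 had 8.28, 12.8 and 11.4 CPM in Ang II and 17.7, 28.9 and 27.8 CPM in control hearts (log2 change -1.20, SE 0.26; adjusted p = 0.365 by edgeR and 0.00814 by DESeq2). Its relative Nr4a2 gave -1.37 (SE 0.38, adjusted p = 0.489 by edgeR and 0.0949 by DESeq2), at or below 1.58 CPM in every heart. All Ang II hearts lay below all control hearts in Dusp1, Nr4a1 and Nr4a2. Fos, Junb, Nr4a3, Ppargc1a and Pck1 were chosen after their values were seen, and the log2 changes of Nr4a3 and Ppargc1a lay above 0. The orphan receptor Nr4a3 had 10.6, 10.2 and 8.98 CPM in Ang II hearts and 1.29, 7.54 and 5.25 CPM in control hearts, every Ang II heart above every control heart (log2 change 1.08, SE 0.55; adjusted p = 0.704 by edgeR). Ppargc1a, a coactivator of mitochondrial genes, gave 0.46 (SE 0.24; adjusted p = 0.704 by edgeR). Pck1, an enzyme of glucose synthesis and 1 of the 7 lower ones, had 0, 0.213 and 0.112 CPM in Ang II hearts and 5.08, 0.466 and 0.273 CPM in control hearts, so that control replicate 1 held most of its signal.

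Upstream and downstream of the enzymes, single genes reached an unadjusted p under 0.05. Hspb6, a small heat shock protein that PKA and PKG phosphorylate, was the gene called higher by DESeq2 (adjusted p = 0.0102). It had 801, 772 and 767 CPM in Ang II hearts and 567, 595 and 594 CPM in control hearts (log2 change 0.41, SE 0.14; adjusted p = 0.579 by edgeR). Npr1, the receptor guanylyl cyclase of natriuretic peptides, had 24.5, 19.4 and 21.5 CPM in Ang II and 26.9, 28.9 and 29.1 CPM in control hearts (log2 change -0.37, SE 0.15; adjusted p = 0.63 by edgeR). Popdc3, a membrane protein that binds cyclic AMP, gave 0.44 (adjusted p = 0.586 by edgeR), the intermediate filament anchor Synm -0.46 (adjusted p = 0.658), and Vipr2, a Gs-coupled peptide receptor, -1.03 (adjusted p = 0.628). The stimulatory and inhibitory G proteins had 0 of 6 at an unadjusted p under 0.05, the PKA inhibitors 0 of 3, CREB and its coactivators 0 of 10 and nucleotide exporters 0 of 2.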

How the data were processed

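The deposited table gave, for each gene and library, an FPKM value and an estimated count that the authors had made. The submitters' processing notes name Bowtie 0.12.2, HISAT2 2.0 and StringTie 1.3.0, without roles, and the build mm8, yet GENCODE M21 shares 55141 gene IDs with the table and places 94.2% of them at the same GRCm38 position, so positions are given on GRCm38. Paired-end poly(A) libraries were made per the labels' protocols, with strandedness not given, so reads of overlapping genes may be split or shared: 15 of the 59 genes overlap another with a mean count of at least 10.

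The estimated counts, whole numbers as deposited, were tested with edgeR 4.0.16 in R 4.3.3 (quasi-likelihood, TMM scaling, filterByExpr, 2-sided, Ang II over control, all 6 libraries), with p-values adjusted over all 16759 genes tested at a threshold of 0.05. CPM used TMM-scaled library sizes, intervals used edgeR's degrees of freedom, and FPKM, which TMM does not scale, served for levels and shares within a library. DESeq2 1.42.0 and limma 3.58.1 on log2(FPKM + 0.5) were alternatives. Rounded estimates are not raw counts, and the tests treat them as such. Replicate numbers were taken only as names, since nothing given says how the animals were handled together. The p-values of edgeR, DESeq2 and limma set each group difference against the spread between hearts of a group. The scripts were tested on simulated data. Promoter sequences come from RefSeq (GRCm38.p6). Genes named in the text were those at an unadjusted p under 0.05, the 3 most abundant of each of 6 classes (all genes named Pde counted as 1 class) and those known in heart, and of each other list up to 3 at an unadjusted p under 0.05. Adcy7, Akap8, Gm45837, Nr4a3, Ppargc1a, Pck1, Fosb, Fos and Junb were chosen after their values were seen. So were the shares given for Adcy5, Pde4d, Akap5 and Akap12. The members and lists were chosen with earlier results of these data known.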

Additional observations from a re-analysis of the deposited data

How the results depend on the processing

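The count of all genes called was 6 in the comparison reported, 12 with no filter on low counts, 276 with DESeq2, 3 with limma on log2(FPKM + 0.5), 2 with a pseudocount of 0.1, 3 with 1, and 1 with limma and no filter, and it ran from 0 to 129 with each library left out in turn. Genes of the set called numbered 0 in each of these except DESeq2, which called 1, Akap5 (log2 change -1.14). At an unadjusted p under 0.05, genes of the set higher in Ang II hearts numbered 2, but 0 in each of the 4 limma settings and 0 to 5 with libraries left out. The lower ones numbered 4, but 0 with each limma pseudocount, 1 with limma and no filter and 2 to 7 with libraries left out. The median log2 change of the set, -0.15, was -0.0351 with limma and no filter and between -0.24 and -0.0582 with libraries left out. Same-numbered hearts had correlations of deviations from their group means of 0.0777, 0.112 and -0.0372. Ang II replicates 1 and 2 correlated best with the same-numbered control heart, and Ang II replicate 3 with control replicate 2 (0.0755). Deviations within a group sum to 0 and so depend on each other, and these small values cannot settle whether the numbers pair the hearts. Under the replicate block, 0 genes were called and the set's counts stayed at 2 higher and 4 lower, with a median of -0.177.

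Shares within a class turned sign with libraries left out for Pde2a (-13.3 to 5.35 percentage points), Prkaca (-0.309 to 0.677) and Akap1 (-0.269 to 7.88), and kept it for Adcy6 (-8.89 to -4.17), Prkar1a (-1.78 to -1.07) and Pde4a (-10.9 to -4.79). Prkaca's log2 change, 0.00382, was -0.00204 with TMM scaling without mitochondrially encoded genes and -0.0131 with the replicate block. Prkacb's was 0.0058 with limma on log2(FPKM + 1), and Prkar1b's 0.00903 with limma and no filter. With each library left out in turn, these log2 changes crossed 0: Prkaca -0.0943 to 0.156, Prkacb -0.287 to 0.182, Prkar1b -0.337 to 0.214, Prkar2a -0.000844 to 0.103, Prkar2b -0.189 to 0.815, Prkg2 -0.655 to 0.525, Adcy4 -0.409 to 0.00442, Akap1 -0.234 to 0.316, Akap10 -0.534 to 0.0218, Akap13 -0.0117 to 0.181, Akap6 -0.32 to 0.113, Pde1a -0.323 to 0.13, Pde1c -0.255 to 0.0256, Pde2a -1.0 to 0.315, Pde3a -0.42 to 0.0772, Pde3b -0.208 to 0.112, Pde4b -0.0213 to 0.256 and Pde5a -0.215 to 0.0627. The cause of these shifts was not tested. The 6 genes at an unadjusted p under 0.05 with all hearts kept their direction in every setting that tested them; Akap5, Pde10a and Pde4d did not pass the filter on FPKM used with limma.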
